A study of Mus musculus with 80 samples.

Results

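The data described here compare muscle stem cells of the tibialis anterior (TA), a hindlimb muscle, after and before they were grafted into another TA. Cells returned to their own kind of muscle, so the comparison asks what transplantation alone changed in RNA, without a change of muscle. Of 40 RNA libraries in the series, 20 came from TA cells. All TA libraries that passed the study's thresholds on sequencing quality entered, which gave 15: 7 grafts and 8 pre-graft libraries. The 5 TA libraries left out were the grafts of mice 1, 4 and 5 and the pre-graft cells of mice 1 and 5 of Experiment 1.

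Donors were Tg:Pax7-nGFP mice on a C57BL/6;DBA2 F1/JRj background, in which a fluorescent nuclear protein is driven by the *Pax7* promoter. They were 7 weeks old in Experiment 2 and 7.6 weeks old in Experiment 1. Before grafting, 500 viable cells per donor were sorted on size, granularity and green fluorescence. Sorted TA cells were injected into the TA of immunodeficient Rag2-/-;γC-/- hosts, which had been injured with cardiotoxin, a toxin that destroys myofibres and triggers regeneration. The other leg of the host received stem cells of the extraocular muscles (EOM). Grafted cells were sorted again on green fluorescence, at day 21 by the labels, and whether size and granularity were gated as before is not stated for this sort. The grafts held 16 to 67 cells by their labels, so all 7 were smaller than every pre-graft sample. Stage and cell number therefore cannot be told apart. The host's own cells carried no fluorescent protein but were present in the digested muscle.

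Muscle stem cells, or satellite cells, lie between the myofibre and its basement membrane and are quiescent in uninjured adult muscle. The transcription factor *Pax7* marks them, *Myf5* and *Myod1* direct the myogenic lineage, and *Calcr* (calcitonin receptor), *Spry1* and the Notch pathway are known for keeping them quiescent. After injury they activate, divide, differentiate and fuse, and a share returns to quiescence. Interferons are cytokines that act through surface receptors and JAK kinases to induce antiviral effectors and antigen presentation.

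RNA was read from small pools of sorted cells after RNA and DNA had been physically separated, with 963432 to 3414854 reads on genes per library. The authors' log2 RPM values (reads scaled to 1000000 reads per library, on the log2 scale) were used. By the authors' library tables, mitochondrial reads were 24.9% ± 13.1 (SD, n = 7) of the reads of grafts and 11.3% ± 7.58 (SD, n = 8) of those of pre-graft libraries, and the ranges overlapped, 5.45 to 46.8% against 3.22 to 22.9% (exact permutation test, two-sided p = 0.0255; p = 0.0173 within Experiment 2). Each library was therefore centred on its median over the tested genes, and levels below are centred log2 RPM unless another scale is named. In the graft of mouse 3 of Experiment 2 (graft Exp2-3; other libraries are named in the same way), the highest of these at 46.8%, mitochondrial genes took 81.1% of the smaller number of reads recovered on genes, which left 257135 reads on nuclear genes. Experiment 1 gave only 1 graft and 2 pre-graft libraries, too few for a comparison of its own. Values of Experiment 2 alone (6 grafts and 6 pre-graft libraries) therefore stand beside the pooled ones for many of the results below. Where they are not given, the pooled values are not shown to hold within Experiment 2.

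Of 13076 genes tested, 1003 were called higher in grafts (7.67%) and 743 lower (5.68%), at a limma adjusted p under 0.05 and a change beyond 2-fold. Their median change was -0.19 on the log2 scale. Without centring, on the authors' own scaling, 496 genes were called higher (3.79%) and 4046 lower (30.9%), with a median change of -1.09, so the split between directions depended on the scaling. With the donor as a fixed block, which compares the 7 donors measured at both stages, 841 genes were called higher (6.52%) and 488 lower (3.79%). Experiment 2 alone gave 521 higher (4.18%) and 266 lower (2.14%). On the recovered reads edgeR called 782 higher (5.98%) and 402 lower (3.07%), and DESeq2 called 1161 higher (8.88%) and 543 lower (4.15%). The values of grafts and pre-graft libraries did not overlap for 282 genes that were higher (2.16% of those tested) and 148 that were lower (1.13%).

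The libraries labelled as grafted TA satellite cells held RNA of stem cells, but also markers of endothelium. The summed level of 12 muscle stem cell markers, in nuclear RPM (reads scaled to 1000000 reads on nuclear genes per library), was lowest at 1715, had a median of 4407 and was highest at 13056 in grafts. In pre-graft libraries it was 15919 at the lowest, 17395 at the median and 20797 at the highest. The groups did not overlap, and every graft had less. The sum of 16 endothelial markers, genes of the cells that line blood vessels, ran from 5864 through a median of 16268 to 20920 in grafts and from 43.4 through 1061 to 5170 in pre-graft libraries. Again no graft overlapped with a pre-graft library, now with every graft higher.

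In grafts Exp2-1, Exp1-3, Exp2-3 and Exp2-6 the endothelial sum (20920, 18216, 16268 and 19662) exceeded the stem cell sum (4407, 2032, 1715 and 4276), in reads that are not corrected for gene length. In grafts Exp2-2, Exp2-4 and Exp2-5 the stem cell sum (12298, 13056 and 12023) was the larger, beside endothelial sums of 9661, 9904 and 5864. By their labels the first 4 held 26, 24, 16 and 16 cells and the other 3 held 67, 66 and 67. The grafts with the fewest cells were thus those with the most endothelial RNA. In EOM grafts of the same experiments the endothelial sum ran from 364 to 22904, against 138 to 1404 in EOM cells before grafting.

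All 16 endothelial markers were called higher in grafts, against 7.67% of all genes tested, with a median log2 change of 4.12. In Experiment 2 alone 13 of the 16 were called. Without the 4 grafts named above, which these markers helped to choose, 2 were, and all 16 were higher there at an unadjusted limma p under 0.05. Counts at this threshold, here and below, need no 2-fold change. The share of all genes at it is not given, so such counts are no results about a list. *Fabp4*, a fatty acid carrier abundant in muscle capillaries, ranged from 11.08 through a median of 12.48 to 12.95 in grafts and from 0.41 through 8.30 to 9.80 before grafting. The groups did not overlap, and the log2 change was 4.76 ± 0.98 (SE, limma adjusted p = 0.00264). *Cldn5*, a tight junction protein of endothelium, had a log2 change of 5.77 ± 1.15 (limma adjusted p = 0.00227), with some overlap between groups. Of 10 mural and smooth muscle markers 3 were called higher, among them the pericyte gene *Rgs5* (log2 change 4.04, limma adjusted p = 0.000651), and their sum ran from 968 to 7600 in grafts and from 604 to 1993 before. Of 13 tested fibro-adipogenic markers, genes of the connective tissue cells between myofibres, 7 were called higher and 1 lower, against 4 and 1 of 12 in Experiment 2 alone and 2 and 1 of 13 in edgeR. Their sums overlapped, at 2560 to 6788 in grafts and 2915 to 6597 before.

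Immune cell markers were scarce at both stages. The pan-leukocyte gene *Ptprc* had at most 2 reads in any graft and 3 in any pre-graft library, and none of the 9 neutrophil, 16 lymphocyte and natural killer or 6 common leukocyte markers had enough reads to be tested. The macrophage sum was 19.6 to 98.8 nuclear RPM in grafts and 17.8 to 31.8 before, with the complement genes *C1qa* and *C1qc* at 0 reads in all 15 libraries and *C1qb* at 0 to 21 in grafts and 0 before. Of its 3 tested markers *Lyz2*, lysozyme, was called higher, at 0 to 56 reads in grafts and 0 to 12 before. Myofibre genes were more abundant in part of the grafts. Their sum ran from 306 through 806 to 6969 in grafts and from 258 through 367 to 584 before. Of 17 tested 8 were called higher and 1 lower (*Actn3*), against 7.67% and 5.68% of all genes. The counts were 5 and 0 in Experiment 2 alone and 1 and 1 without the 4 grafts named above. With the endothelial sum as a covariate, described below, limma called 0, with 6 higher and 1 lower at an unadjusted p under 0.05. *Ttn*, the giant spring protein of the sarcomere, had 81 to 593 reads in grafts and 6 to 120 before and did not overlap on the centred scale (log2 change 4.42 ± 0.65, limma adjusted p = 0.000226). In pooled cells, fewer cells of a type and less RNA per cell cannot be told apart, here and in all results that follow.

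**Figure D1:**
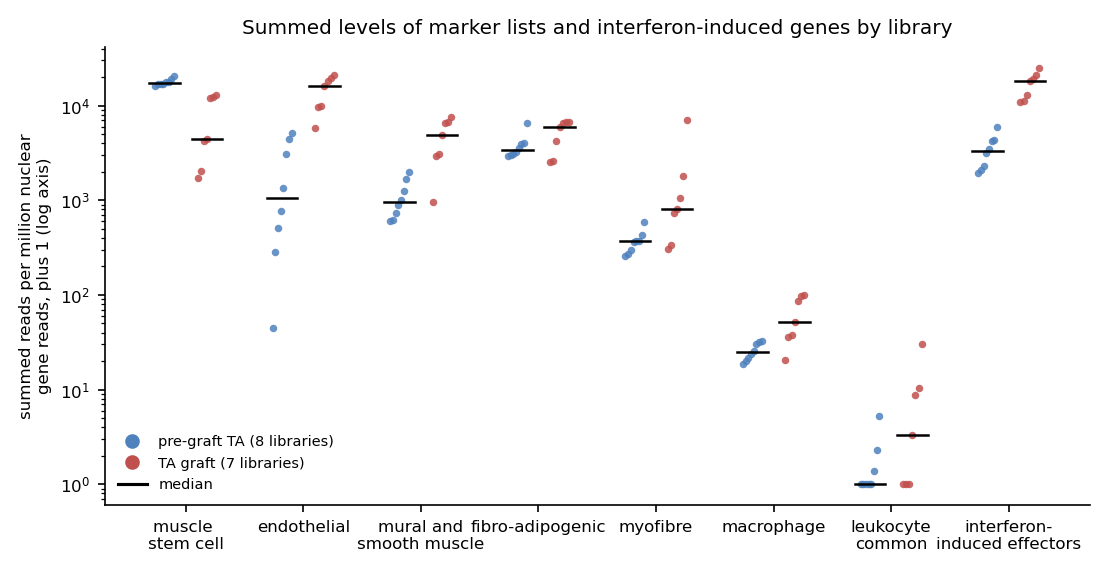
Summed levels of 7 lists of cell type markers and of the interferon-induced effectors in each library, in nuclear RPM plus 1 on a log axis. Points are libraries (8 pre-graft in blue, 7 grafts in red) and bars are medians. Stem cell sums of all grafts lie below, and endothelial and interferon-induced sums of all grafts above, those of every pre-graft library.

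Because endothelial RNA moved with stage, all genes were also fitted with further models that were chosen after seeing the data. With the logarithm of the endothelial sum as a covariate, which correlated with stage at 0.76 over the 15 libraries and so shares most of its variation, 14 genes were called higher (0.107%) and 5 lower (0.0382%). Without the 4 grafts whose endothelial sum exceeded their stem cell sum, 183 were called higher (1.47%) and 326 lower (2.63%) of 12419, from 3 grafts against 8 pre-graft libraries. These values stand beside many of the results below as "with the covariate" and "without the 4 grafts". The endothelial markers form the covariate, and the endothelial and stem cell markers chose the 4 grafts. Changes of those markers in these fits therefore follow in part from that. How much of each difference came from cells other than stem cells was not tested.

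Of 37 tested genes of stem cell identity and quiescence, 19 were called lower in grafts, against 5.68% of all genes, and 3 higher, with a median log2 change of -1.45. *Pax7* (ENSMUSG00000028736, chromosome 4 from 139737062 to 139833530, GRCm38) ranged from 5.27 through a median of 7.14 to 8.99 in grafts and from 8.89 through 9.10 to 9.98 before. Only the highest graft, Exp2-2, reached the pre-graft range, and the log2 change was -2.18 ± 0.44 (SE, limma adjusted p = 0.00244). *Myf5* fell by 2.16 (limma adjusted p = 0.0112) and overlapped, from 4.62 to 9.46 in grafts and 8.86 to 9.95 before. *Myod1* was called lower (log2 change -1.52, limma adjusted p = 0.0408) but lost the call in 10 of 15 fits that each left out a single library, with limma adjusted p up to 0.0909.

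Several genes of the satellite cell surface and its signalling were lower too. *Cdh15*, M-cadherin, which ties the satellite cell to its myofibre, ranged from 1.66 through 6.13 to 6.70 in grafts and from 7.79 through 8.51 to 8.86 before, with no overlap (log2 change -3.18 ± 0.58, limma adjusted p = 0.00119). *Chodl*, a membrane lectin, ranged from 6.13 to 10.19 against 10.38 to 11.62 (log2 change -2.46, limma adjusted p = 0.00169). *Calcr* overlapped, from 1.81 to 7.43 in grafts and 6.93 to 8.15 before (log2 change -2.76, limma adjusted p = 0.0058). *Spry1*, an inhibitor of growth factor signalling, had 37 to 164 reads in grafts and 261 to 805 before, and its levels did not overlap (log2 change -1.38, limma adjusted p = 0.00251). *Fgfr4* and *Chrdl2*, a receptor for fibroblast growth factors and a secreted inhibitor of bone morphogenetic proteins, fell by 3.37 and 3.91 (limma adjusted p = 0.0152 and 0.00137). *Vcam1*, an adhesion molecule of satellite cells that endothelium also expresses, was not called (log2 change -0.90, limma adjusted p = 0.0756).

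*Cd34* went the other way. This surface glycoprotein of quiescent satellite cells is also a classical endothelial gene, and it ranged from 7.76 through 8.43 to 8.89 in grafts and from 6.84 through 7.31 to 7.56 before. Every graft was above every pre-graft library (log2 change 1.12 ± 0.21, limma adjusted p = 0.00127). *Tek*, the other endothelial receptor in the list, and *Fbln7* were the remaining 2 called higher.

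The 4 grafts were chosen partly by their sum of 12 stem cell markers, and 10 of these markers are in this list. Smaller falls of those genes without the 4 grafts therefore follow in part from the choice. When the 4 grafts were left out, 8 of the 37 genes were called lower, all of them among the 19, against 2.63% of genes, with a median change of -0.47. *Cdh15* fell by 2.04 (limma adjusted p = 0.000542), *Spry1* by 1.57 (0.0102), *Chodl* by 1.15 (0.037) and *Fgfr4* by 1.30 (0.0111), while *Pax7* at -0.95 (0.0785), *Myf5* at -0.57 (0.207) and *Calcr* at -1.73 (0.0632) missed the threshold. With the covariate 0 of the 37 were called by limma and 14 were lower at an unadjusted p under 0.05, and the change was -1.61 for *Pax7* and -2.70 for *Cdh15*. Within Experiment 2, 11 were called lower and 2 higher, and *Pax7* fell by 1.71 (limma adjusted p = 0.0317).

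**Figure D2:**
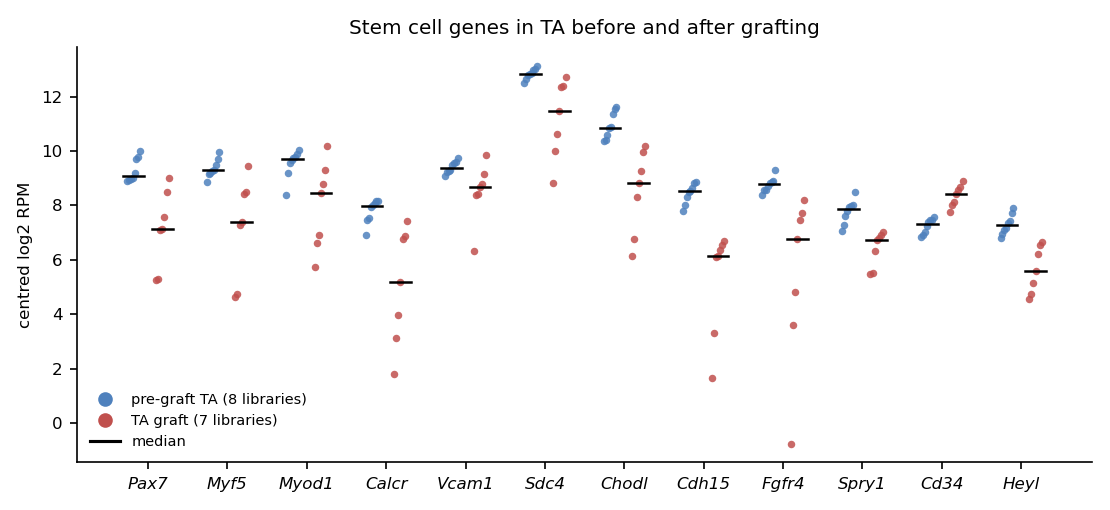
Centred log2 RPM of 12 stem cell genes in 8 pre-graft (blue) and 7 graft (red) libraries, with medians as bars. *Cdh15*, *Chodl*, *Fgfr4*, *Spry1* and *Heyl* are lower in every graft than in every pre-graft library, *Cd34* is higher in every graft, and the grafts spread more widely than the pre-graft libraries for *Pax7*, *Myf5* and *Calcr*.

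Interferon-induced effectors act directly on viruses and infected cells. Of 55 tested effectors 53 were called higher, against 7.67% of all genes, and the median log2 change was 3.29. For 31 of them grafts and pre-graft libraries did not overlap, against 2.16% of all genes. The 2 that were not called were *Isg20* (log2 change 0.86, limma adjusted p = 0.296) and *Parp12* (1.26, 0.073). A higher interferon response after grafting was known from earlier results of these data when the list was chosen, so its direction is not independent evidence.

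The interferon-stimulated response element is the DNA motif that interferon regulatory factors bind. It was written here as GAAA, any 2 bases and GAAA again, and sought on both strands of RefSeq promoters of GRCm38.p6, from 250 bases before to 50 after the start. Of the 53 effectors called, 39 matched a promoter and 23 of these held it (59.0%), against 3.99% of 27025 genes with a promoter. The gamma-activated site, written TTCNNNGAA, was in 13 of the 39 (33.3%) and in 9.55% of all. Of all genes called higher 8.87% held the first motif, and of those called lower 4.17%. The effectors were listed as interferon-induced, so their share follows from that choice and is no evidence from the graft comparison. The genes called higher include these effectors. A match describes the sequence and is not shown to be a binding site. The promoters of the 4 effectors with the largest change that held the first motif follow, 5′ to 3′ on the strand of the gene, with matches on either strand in capitals. They belong to *Rsad2* (viperin, which blocks viral replication, chr12:26456403-26456702, minus strand), *Trim30a* (a tripartite motif protein, chr7:104465144-104465443, minus strand), *Ifit1* (which binds viral RNA, chr19:34640639-34640938, plus strand, 2 matches) and *Oas1a* (a sensor of double-stranded RNA, chr5:120907476-120907775, minus strand, 2 overlapping matches).
Rsad2: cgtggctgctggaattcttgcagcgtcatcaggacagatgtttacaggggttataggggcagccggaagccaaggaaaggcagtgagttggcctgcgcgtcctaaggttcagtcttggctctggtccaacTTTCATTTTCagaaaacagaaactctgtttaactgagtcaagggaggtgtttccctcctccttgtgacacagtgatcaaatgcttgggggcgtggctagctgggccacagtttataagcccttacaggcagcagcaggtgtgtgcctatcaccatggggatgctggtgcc
Trim30a: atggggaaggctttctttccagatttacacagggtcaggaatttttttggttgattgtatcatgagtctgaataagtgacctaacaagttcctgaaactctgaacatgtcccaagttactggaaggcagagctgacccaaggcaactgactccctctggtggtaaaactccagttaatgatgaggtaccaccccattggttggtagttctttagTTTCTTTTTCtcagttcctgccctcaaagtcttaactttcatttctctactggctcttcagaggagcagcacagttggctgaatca
Ifit1: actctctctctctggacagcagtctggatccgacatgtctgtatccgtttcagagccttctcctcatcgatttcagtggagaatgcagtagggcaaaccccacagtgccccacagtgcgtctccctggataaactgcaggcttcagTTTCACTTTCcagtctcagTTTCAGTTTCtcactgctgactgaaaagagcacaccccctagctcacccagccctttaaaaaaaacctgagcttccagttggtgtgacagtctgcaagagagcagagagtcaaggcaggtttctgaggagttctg
Oas1a: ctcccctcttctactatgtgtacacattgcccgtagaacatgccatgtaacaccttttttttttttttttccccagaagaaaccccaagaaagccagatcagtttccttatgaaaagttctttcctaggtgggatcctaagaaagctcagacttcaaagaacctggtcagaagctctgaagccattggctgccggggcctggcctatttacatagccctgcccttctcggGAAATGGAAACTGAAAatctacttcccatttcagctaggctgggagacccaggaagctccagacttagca

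*Rsad2* itself had 313 to 1496 reads in grafts and 0 to 452 before. On the centred scale it ranged from 7.84 through a median of 9.41 to 10.30 in grafts and from -1.33 through 3.68 to 7.11 in pre-graft libraries. No graft overlapped with a pre-graft library, although pre-graft libraries Exp2-1 and Exp2-6 stood well above the other pre-graft libraries (log2 change 5.94 ± 0.94, limma adjusted p = 0.000394). *Ifit1* and *Trim30a* also did not overlap (log2 changes 5.50 and 5.62, limma adjusted p = 0.00181 and 0.000281), and *Oas1a*, with little RNA before grafting, changed by 5.10 (0.000738).

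The largest change of the list was that of *Slfn2* (ENSMUSG00000072620, chromosome 11 from 83065112 to 83070678), a member of the interferon-induced schlafen family. It had no reads in 7 of 8 pre-graft libraries and 7 reads in the other, against 12 to 490 in grafts. The log2 change was 6.76 ± 0.78 (limma adjusted p = 2.41e-05), a value that depends on what a gene without a read is set to. *Ifi27l2a*, a small interferon-induced membrane protein, had 25 to 913 reads in grafts and 0 to 39 before (log2 change 6.53, limma adjusted p = 0.00011). *Ifi44*, an interferon-induced antiviral protein, had 84 to 599 against 0 to 42 (6.21, 6.05e-05), and the guanylate-binding protein *Gbp9* had 58 to 576 against 0 to 88 (5.96, 0.000587). All 4 did not overlap between groups. *Ifi204*, *Mnda* and *Mndal*, related sensors of DNA that lie in a single gene cluster, changed by 6.36, 6.15 and 5.66 (limma adjusted p = 3.47e-05, 1.67e-05 and 0.000138). The guanylate-binding, *Ifitm* and *Oas1* families and these DNA sensors hold near-identical members, and how the authors' counting divided reads among them is not given in the sources used here. *Ifitm3*, which blocks viral entry and had the highest level in the list, ranged from 10.58 to 11.95 in grafts and from 8.90 to 9.78 before (log2 change 1.73 ± 0.22, limma adjusted p = 5.59e-05).

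**Figure D3:**
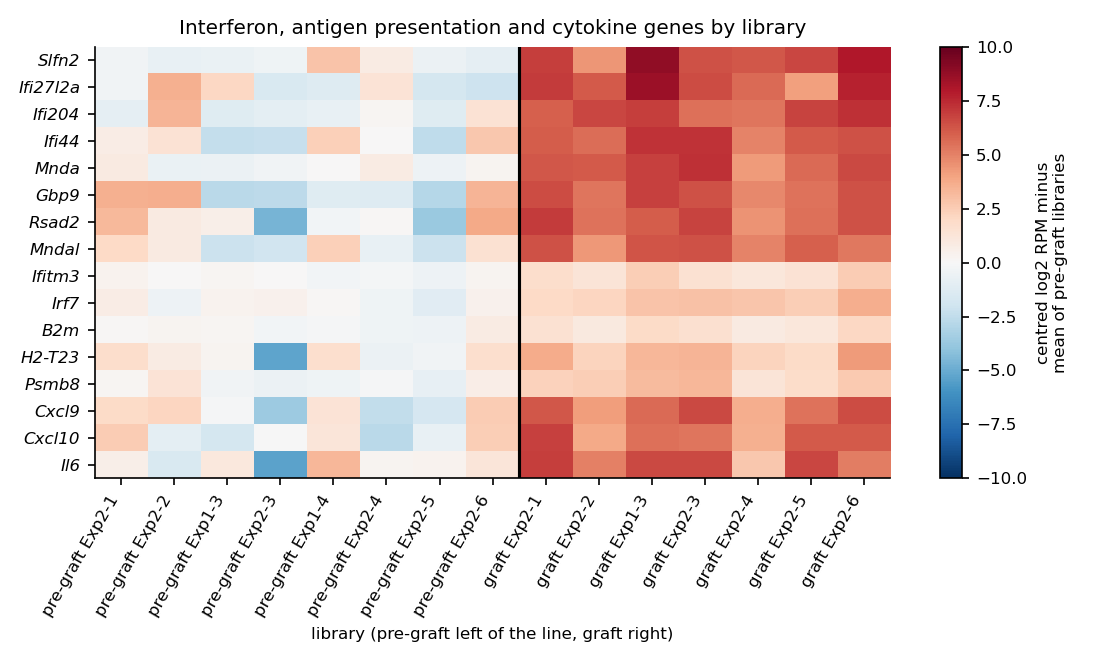
Centred log2 RPM of 16 genes of interferon response, antigen presentation and cytokines in each library, minus the mean of the 8 pre-graft libraries (left of the line; 7 grafts to the right). Red is above and blue below that mean. Grafts are red throughout for *Slfn2*, *Ifi204*, *Ifi44*, *Irf7* and *Cxcl10*, while pre-graft libraries differ among themselves for *Rsad2* and *Gbp9*.

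The summed level of the effectors was higher in every graft than in every pre-graft library. It was 10822 to 25074 nuclear RPM in grafts, with a median of 18360, and 1921 to 5986 before, with a median of 3309. Grafts Exp2-2, Exp2-4 and Exp2-5, in which stem cell markers exceeded endothelial ones, were at 11070, 10822 and 12883. Without the 4 grafts 21 of 54 effectors were called higher, all of them among the 53, against 1.47% of genes, with a median change of 2.87, and 48 were higher at an unadjusted limma p under 0.05. *Slfn2* then changed by 5.75 (limma adjusted p = 0.00452), *Rsad2* by 5.14 (0.0446) and *Ifi44* by 5.55 (0.0173), while *Gbp9* at 5.21 missed the threshold (0.0602). With the covariate the median change was 1.58, *Slfn2* and *Rtp4* of the list were called, and 33 were higher at an unadjusted limma p under 0.05. Within Experiment 2, 45 of 54 were called, against 4.18% of genes.

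Of 18 tested receptors and signal transducers of the interferon pathway 2 were called higher, the transcription factor *Irf7* and the kinase *Jak2*, a share near the 7.67% of all genes, with a median change of 0.30. *Irf7* (ENSMUSG00000025498, chromosome 7 from 141262706 to 141266481), which amplifies type I interferon production, ranged from 7.62 through 8.39 to 9.24 in grafts and from 4.45 through 5.86 to 6.38 before. It did not overlap (log2 change 2.68 ± 0.30, limma adjusted p = 2.41e-05), and it was called without the 4 grafts (2.45, 0.00213) and with the covariate (2.63, 0.0338). The receptor subunits *Ifnar1*, *Ifnar2*, *Ifngr1* and *Ifngr2* had changes of -0.30, 0.31, 0.17 and 0.56, and none was called.

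Of 23 tested genes of class I antigen presentation, 10 were called higher, against 7.67% of all genes, with a median change of 1.00. *B2m*, the invariant light chain of class I molecules, ranged from 11.02 through 11.63 to 12.16 in grafts and from 9.56 through 10.09 to 10.89 before, with no overlap (log2 change 1.44 ± 0.22, limma adjusted p = 0.000357). *Psmb8*, a subunit of the immunoproteasome, changed by 2.43 (limma adjusted p = 0.000165) and the non-classical class I gene *H2-T23* by 3.03 (0.012). *H2-Q6* and *H2-Q7*, near-identical neighbours whose reads may be shared, changed by 2.20 and 3.03 (0.0174 and 0.0164). In the fit without the 4 grafts 3 of the 23 were called, and within Experiment 2 there were 4. With the covariate limma called 0, with 5 higher at an unadjusted p under 0.05 and a median change of 0.32. On the authors' scaling *B2m* changed by 0.54 and lost its call (limma adjusted p = 0.231).

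Of 29 tested chemokine, cytokine and receptor genes 10 were called higher, against 7.67% of all genes, and 1 lower. *Cxcl10*, a chemokine that attracts T cells, had 227 to 2768 reads in grafts and 3 to 358 before, and its levels did not overlap (log2 change 5.33 ± 0.69, limma adjusted p = 6.53e-05). *Cxcl9*, a related chemokine, had 92 to 715 reads against 0 to 93 (5.47 ± 0.83, 0.000279), again without overlap in level. *Il6*, a cytokine that acts on satellite cells after injury, had 158 to 3185 reads in grafts and 0 to 308 before (5.66 ± 0.88, 0.000358). With the 4 grafts left out, *Cxcl10*, *Cxcl9* and *Il6* changed by 4.50, 4.43 and 4.82 (limma adjusted p = 0.0159, 0.048 and 0.0403), so all 3 were called, while with the covariate their changes of 3.96, 1.99 and 3.30 were not. *Ccl19* was the gene called lower, at 0 to 9 reads in grafts and 20 to 76 before (log2 change -3.33, limma adjusted p = 0.00299).

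Genes of the early response are induced within minutes of a stimulus and also by the dissociation of muscle. Of 37 tested 9 were called lower in grafts, against 5.68% of all genes, and 3 higher, with a median change of -0.18. *Nr4a1* (ENSMUSG00000023034, chromosome 15 from 101266846 to 101274792), an orphan nuclear receptor, ranged from 8.30 through a median of 8.74 to 9.54 in grafts and from 10.28 through 10.58 to 11.13 before. The groups lay apart, and the log2 change of -1.81 ± 0.20 (limma adjusted p = 2.41e-05) hardly moved between fits, at -1.82 without the 4 grafts (0.000542) and -2.03 with the covariate (0.00615). *Egr2*, a zinc finger factor, had 4 to 109 reads in grafts and 225 to 742 before and fell by 2.48 (limma adjusted p = 4.15e-05), with calls in both of these fits as well.

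*Fos*, a subunit of the AP-1 factor, ranged from 8.51 through 10.79 to 11.36 in grafts and from 11.85 through 12.11 to 12.45 before, also without overlap (log2 change -1.61 ± 0.31, limma adjusted p = 0.00155). *Jun*, *Fosb*, *Egr1*, *Myc*, *Btg2* and *Trib1* were the other genes called lower, with changes from -1.02 to -1.43. Without the 4 grafts 6 of the 37 were called lower and within Experiment 2 there were 7, all of them among the 9. Both fits called 0 higher, with 4 higher in each at an unadjusted limma p under 0.05. Which pools were frozen before sorting is not given per library, and the part of tissue handling in these values was not tested. Of 22 tested heat shock and chaperone genes 2 were called lower and 1 higher, near the shares of all genes (5.68% and 7.67%). At an unadjusted limma p under 0.05, 11 were lower and 3 higher. Their sum did not overlap, at 10016 to 12103 nuclear RPM in grafts and 14642 to 17887 before.

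Lineage and differentiation genes were mixed. Of 26 tested limb *Hox* genes and progenitor factors 9 were called lower, against 5.68% of all genes, and 2 higher, with a median change of -0.77. The 9 became 3 in Experiment 2 alone, 3 in edgeR, 5 with the donor as a fixed block and 3 without the 4 grafts, and with the covariate limma called 0, with 6 lower at an unadjusted p under 0.05. *Lbx1*, a homeobox factor of migrating limb muscle precursors, had 19 to 48 reads in every pre-graft library, no reads in 6 of the 7 grafts and 6 reads in graft Exp2-5 (log2 change -3.92 ± 0.70, limma adjusted p = 0.00102), and it was called without the 4 grafts too (-3.76, 0.0177). *Hoxc10*, a patterning gene of the hindlimb, had 0 to 23 reads in grafts and 40 to 194 before (-3.54, 0.00407). *Msc*, musculin, fell by 4.87 (limma adjusted p = 0.00188) but overlapped, with 721 reads in the highest graft and 604 in the lowest pre-graft library.

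Of 21 tested genes of commitment and differentiation 5 were called higher and 6 lower, against 7.67% and 5.68% of all genes. In Experiment 2 alone the counts were 4 and 1, and without the 4 grafts 1 and 1. With the covariate limma called 0, with 5 higher and 2 lower at an unadjusted p under 0.05. *Myog*, which marks committed myoblasts, had no reads in any graft and 0 to 135 before. Its change was not called (limma adjusted p = 0.107). The acetylcholine receptor subunit *Chrna1* and its anchor *Rapsn* fell by 4.72 and 3.30 (limma adjusted p = 0.00134 and 0.00764). *Mef2c*, a muscle transcription factor that endothelium also expresses, and the myosin light chain *Myl1* changed by 4.47 and 3.39 (0.00318 and 0.00323).

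Of 30 tested cell cycle and replication genes 3 were called higher and 3 lower, near the shares of all genes (7.67% and 5.68%). *Mki67*, a marker of dividing cells, had 0 to 19 reads in grafts and 0 to 9 before and was not called (log2 change 1.25, limma adjusted p = 0.309). *Pcna*, the clamp of DNA polymerase, ranged from 7.42 to 8.71 against 6.83 to 7.37, without overlap (log2 change 1.19, limma adjusted p = 0.000632). *Ccne1*, cyclin E1, had no reads in any graft and 4 to 38 before. With each graft set to 3 reads, as in all such bounds here, it was on average at least 3.10-fold lower. Cell cycle inhibitors were a separate list, with 2 of 15 tested called higher and 2 lower, against 7.67% and 5.68% of all genes. *Cdkn1a*, an inhibitor of cyclin-dependent kinases, was called higher at 10.93 to 12.39 against 9.41 to 10.58 (log2 change 1.18, limma adjusted p = 0.00195), and without graft Exp2-6 its change of 0.997 fell just short of 2-fold. *Gas1*, a growth arrest gene, fell by 2.80 without overlap (limma adjusted p = 0.000393). Without the 4 grafts limma called 0 of 25 cell cycle genes higher, 2 at an unadjusted p under 0.05, and 2 lower. In Experiment 2 alone 1 of 25 was called higher and 1 lower.

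Notch genes did not all move in 1 direction. The receptor *Notch1* ranged from 9.15 to 10.60 in grafts and 8.33 to 9.11 before (log2 change 1.16, limma adjusted p = 0.00105), the endothelial receptor *Notch4* changed by 3.44 (0.0246) and the endothelial ligand *Dll4* by 4.04 (0.0132). The modifier *Lfng* changed by 3.94 (0.000971). The target *Heyl*, which is active in quiescent satellite cells, had 21 to 153 reads in grafts and 241 to 448 before and was lower without overlap in level (log2 change -1.67 ± 0.32, limma adjusted p = 0.00181). In all, 4 of 22 tested Notch genes were called higher and 1 lower, against 7.67% and 5.68% of all genes, and 2 and 1 of 21 in Experiment 2 alone. *Heyl* alone was called without the 4 grafts, at -2.49 (limma adjusted p = 0.000175), and *Dll4* turned to -0.18 with the covariate.

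Of 19 tested basement membrane genes 7 were called higher, against 7.67% of all genes, with the vascular laminin chain *Lama4* leading (log2 change 3.41 ± 0.60, limma adjusted p = 0.000958), and 2 lower, *Lama3* and *Lamc3*. Of 29 tested fibrillar collagens and other matrix proteins 9 were called higher and 2 lower, against 7.67% and 5.68% of all genes. In Experiment 2 alone 3 basement membrane and 6 matrix genes were called higher. *Dcn* and *Col1a1*, products of connective tissue cells, had 0 to 3303 and 43 to 358 reads in grafts and 0 to 2413 and 0 to 329 before, and both overlapped widely. Without the 4 grafts limma called 0 genes of either list higher, with 5 and 6 higher at an unadjusted p under 0.05, and with the covariate it called 0 as well, with 2 and 4. Of 30 tested genes of the TGF-beta and BMP pathways 3 were called higher and 2 lower, near the shares of all genes, and 1 and 0 in Experiment 2 alone.

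Of the 13 mRNAs of the mitochondrial genome 9 were called higher in grafts, against 7.67% of all genes, with a median change of 2.31, and all 13 overlapped between groups. Without grafts of under 20 cells 2 were called. Without the 4 grafts limma called 0, with 9 higher at an unadjusted p under 0.05, and with the covariate 0 at either threshold. *mt-Nd2*, a subunit of complex I, ranged from 12.86 through 14.64 to 17.52 in grafts and from 10.19 through 12.42 to 13.80 before (log2 change 2.57 ± 0.62, limma adjusted p = 0.00767). The highest value belonged to graft Exp2-3. Of 75 tested nuclear genes of oxidative phosphorylation 1 was called, *Sdha*, which was lower, against 5.68% of all genes, and the median change was -0.10. Of 78 tested ribosomal protein genes limma called 0, edgeR called 1 lower and DESeq2 called 0, while 22 were lower and 1 higher at an unadjusted limma p under 0.05. On the authors' scaling, where 30.9% of all genes were called lower, so were 66 of the 78 ribosomal protein genes and 29 of the 75 genes of oxidative phosphorylation. Of 22 tested glycolysis genes 2 were called lower, near the 5.68% of all genes, *Pdk4* (log2 change -3.65, limma adjusted p = 0.0138) and *Pkm* (-1.01, 0.00102). In Experiment 2 alone limma called 0, with 3 lower at an unadjusted p under 0.05, and DESeq2 called 0 as well. The peroxidase *Gpx1* was higher without overlap (2.14 ± 0.29, 0.00011) and the glutathione transferase *Gstm1* lower without overlap (-1.55 ± 0.22, 0.00014), both also without the 4 grafts (1.52 and -1.58, limma adjusted p = 0.0177 and 0.00289).

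**Figure D4:**
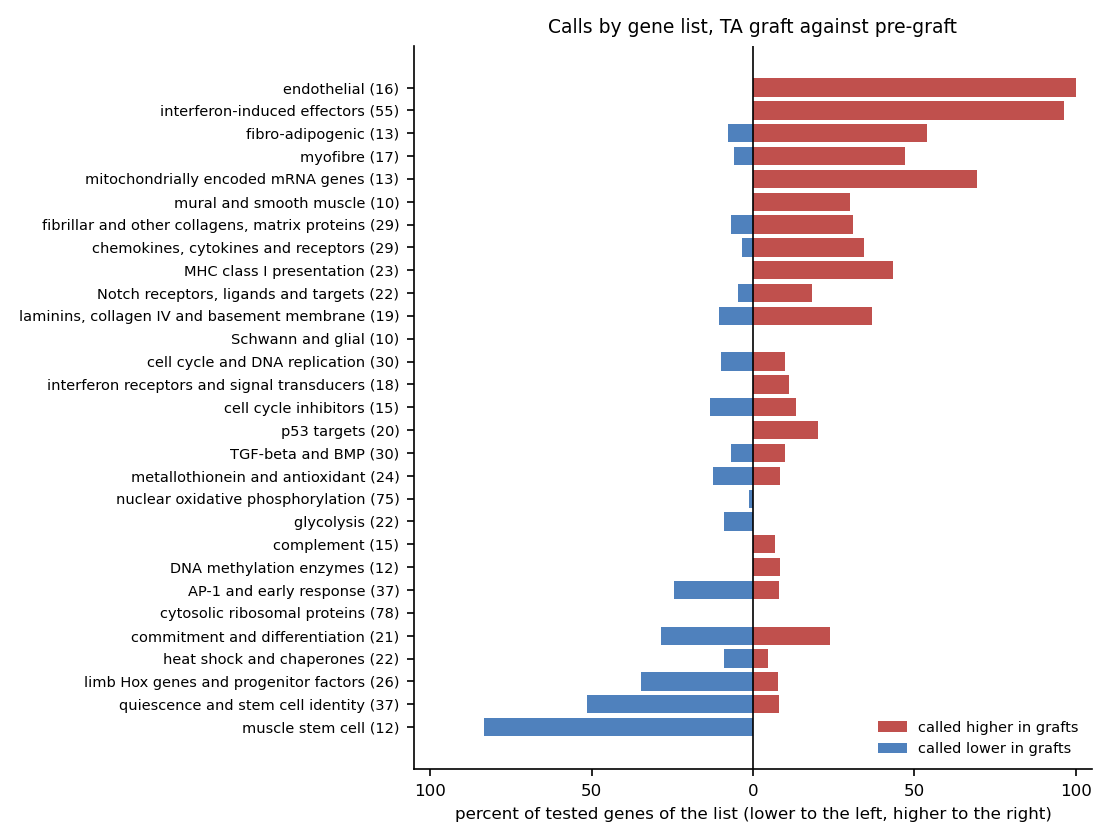
Percent of the tested genes of each list called higher (red, right) or lower (blue, left) in grafts, for lists with at least 10 genes tested, whose number is in brackets, sorted by median change. Endothelial genes and interferon-induced effectors lie at the top with nearly all genes called higher, and the muscle stem cell markers at the bottom with 10 of 12 called lower.

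Outside the lists, the genes lower in every graft with the largest change were led by *Abhd8*, an enzyme of the abhydrolase family. It had 59 to 184 reads in every pre-graft library, no reads at the median of grafts and at most 16 (log2 change -5.30 ± 0.73, limma adjusted p = 0.000129). *Fam132b* (erythroferrone, also known as myonectin) ranged from 0.55 through 7.88 to 9.66 in grafts and from 10.53 through 10.91 to 11.35 before (-5.07 ± 1.07, 0.00318). *Nppc*, the precursor of C-type natriuretic peptide, *Blnk*, an adaptor of B cell receptors, and *Robo1*, a guidance receptor, fell by 5.06, 4.88 and 4.53 (limma adjusted p = 0.000127, 0.000564 and 0.000766). *Cbs*, cystathionine beta-synthase, had no reads in any graft and 15 to 86 before, which is at least 6.22-fold lower. All 6 kept their call without the 4 grafts, where *Abhd8* fell by 6.26 (0.000139) and *Fam132b* by only 1.87 (0.000677).

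Among the 10 genes with the largest rise that had reads in every graft and did not overlap, 8 belonged to interferon-induced families: *Slfn2*, *Ifi27l2a*, *Ifi204*, *Ifi44*, *Mnda*, *Gbp9*, *Rsad2* and *Mndal*. The other 2 were *Atp8b1*, a lipid flippase (log2 change 6.06 ± 0.79, limma adjusted p = 7.2e-05), and *Tm4sf1*, a surface protein of endothelium (5.91 ± 1.19, 0.00233). *Tm4sf1* had 1002 to 23698 reads in grafts and 0 to 1829 before, and its change was -0.061 with the covariate. The 14 genes called higher with the covariate included *Slfn2*, *Mnda*, *Rtp4*, *Irf7* and the anticoagulant receptor *Thbd*, and the 5 called lower were *Nr4a1*, *Egr2*, *Meg3*, *Tdp1* and *Tmem177*.

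**Figure D5:**
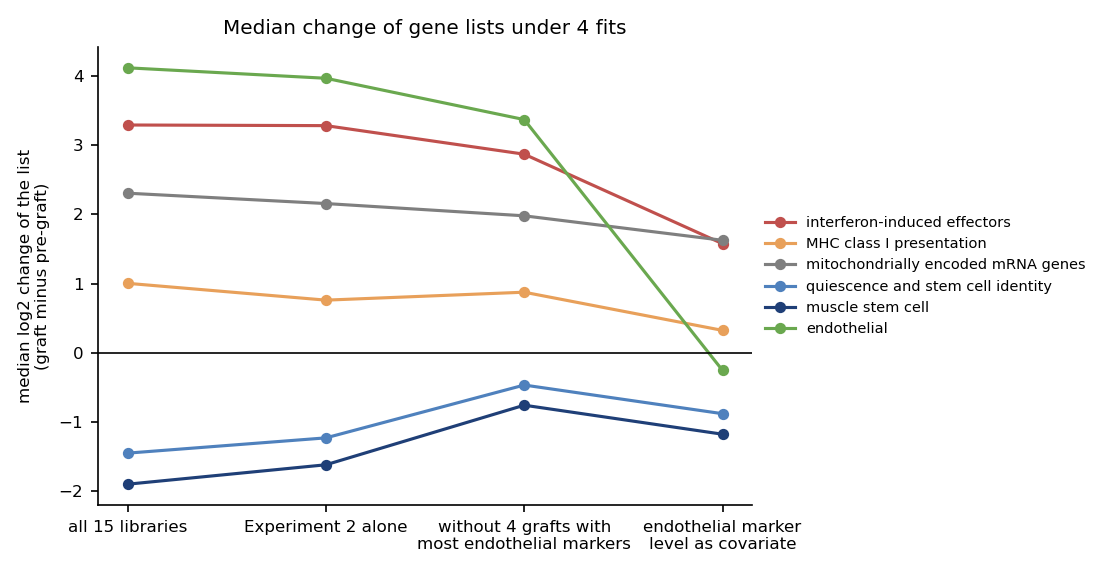
Median log2 change (graft minus pre-graft) of 6 gene lists in 4 fits of the same comparison. Lines only join the points of a list. The interferon-induced median is 3.29, 3.28, 2.87 and 1.58 from left to right, the endothelial median falls to -0.26 with the endothelial covariate, and the medians of the stem cell lists are nearest to 0 without the 4 grafts. The endothelial markers form the covariate, and the endothelial and stem cell markers chose the 4 grafts, so these shifts of their lists follow in part from that.

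The change of TA cells was compared with that of EOM cells grafted into the same kind of host muscle, as an interaction of muscle and stage in 30 libraries. A pre-graft EOM library that passed the quality thresholds was left out, as the study treated it as an outlier. In EOM alone 871 of 13094 tested genes were called higher in grafts (6.65%) and 634 lower (4.84%). Of 14428 genes tested for the interaction, 10 had a more positive change in TA (0.0693%) and 14 a more negative one (0.0970%). Of these 24 genes, 15 had too few reads in either TA or EOM libraries to be tested in that muscle alone, among them *Lbx1*, *Hoxc10*, *Hoxc9*, *Hoxc11* and *Hoxa10*. A gene with few reads in a muscle has little room to fall there, so the sign of these differences follows from where the gene had reads and is no finding. The remaining 9 were tested in both muscles. *Cd34* was called with a positive difference, 1.68 ± 0.37 (limma adjusted p = 0.0457). Its median went from 7.33 to 8.51 in TA and from 8.40 to 8.23 in EOM, on the scale of these 30 libraries. *Ccnd1*, cyclin D1, had a difference of -3.25 (limma adjusted p = 0.0146), from a fall by 1.22 in TA and a change of 1.97 in EOM. Within Experiment 2, 6 of 13887 genes were called, 1 more positive and 5 more negative in TA. Neither *Cd34* (1.38, limma adjusted p = 0.160) nor *Ccnd1* (-2.97, 0.215) was among them.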

How the data were processed

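RNA of TA cells was sequenced on a HiSeq 2500 as 75 base paired reads after separation from DNA (the G&T method). The 40 bisulfite libraries of the series are not analysed here. The authors trimmed reads with Trim Galore 0.4.4, aligned them to GRCm38 with HISAT2 2.1.0 (versions from the submitters' processing notes) and quantified them in Seqmonk. How reads on several or overlapping genes or on either strand were counted is not given in the sources used here. The deposited table holds log2 RPM per gene, in the authors' correction for library size, and the deposited library tables hold counts of all reads and their percent on genes, in exons, in rRNA and from mitochondria. Libraries with over 500000 reads, at least 70% in genes and 65% in exons entered, as the study required, except 1 pre-graft EOM library (Exp2-3) that the study set aside as an outlier of its group. Groups, cell numbers and the graft day are those of the labels. The paper's supplement differs in cell number for TA grafts Exp2-4 and Exp2-5, and its text gives other graft times.

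A gene without a read stands at 0.9 of a read in the deposited log2 values. Counts of reads were recovered from that, and 99.9939% of values came out whole within 0.05 of a read. Of repeated gene names 66 rows were dropped, which left 25899 genes, and 0 columns of the table were unused. Genes with log2 RPM above 1 in at least 4 of the libraries compared were tested in limma 3.58.1 (R 4.3.3) with a trend of the variance over the mean, after each library was centred on its median over these genes. Tests are two-sided with Benjamini-Hochberg adjustment over all tested genes, and a call needs an adjusted p under 0.05 and a log2 change beyond 1. Counts at an unadjusted p under 0.05 need no such change, and the share of all genes at that threshold is not given. A change is on the log2 RPM scale, and for genes with few reads it depends on the value set for no read. Centring moves that value differently in each library, so changes near it may be understated or overstated. Without the filter on low values the median change over 20144 genes was 0.41. edgeR 4.0.16 (quasi-likelihood) and DESeq2 1.42.0 were run on the recovered reads as alternatives. On data simulated for the TA graft comparison, 52.1% of 96 genes changed by log2 2, 92.7% of 96 changed by log2 3 and 0.055% of 12726 unchanged genes were called. The simulation used a single dispersion for all genes and both stages, without mixed cell types or differing mitochondrial shares. These rates need not hold for the real libraries, where grafts spread more widely for genes such as *Pax7*. Sums of marker lists are recovered reads scaled to 1000000 reads on nuclear genes.

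Stages are paired by donor for 7 mice by the labels. Deviations of paired libraries from their group means correlated at -0.080 to 0.115, and the consensus correlation was -0.0021.

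The members and gene lists were chosen with earlier results of these data known. Named are 15 marker genes (1 more that the rule names is not reported here), the 10 genes with the largest change in each direction among those without overlap between groups and with reads in every library of the higher group, up to 4 called genes and the member with the highest level of each list, and up to 5 genes in each direction of the interaction. Other genes named, such as members called in an alternative or counted in a sentence, were chosen after their values were seen. Alternatives were the scaling, the filter, the offset added before the log, the donor block, experiment, failed libraries, grafts of under 20 cells, the tool, leaving out each library and, added after seeing the data, the endothelial covariate and leaving out 4 grafts.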

Additional observations from a re-analysis of the deposited data

Results flagged for a closer look

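Among 75 groups of values looked at, single libraries stood apart from the rest of their group in 4, where chance flags about 1 in 20 groups. Graft Exp2-3 had the highest myofibre sum (6969 nuclear RPM) and the lowest *Vcam1* (6.33 centred log2 RPM), and it is also the graft with the fewest nuclear reads and with 16 cells. Pre-graft library Exp2-2 had the highest fibro-adipogenic sum of its group (6597). Graft Exp1-3 had the lowest *Fos* (8.51), and without it *Fos* fell by 1.27 on the log2 scale (limma adjusted p = 0.00395 at most over all fits that leave out a library).

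For 24 genes the interaction of muscle and stage passed the test. For 15 of them 1 of the muscles had too few reads to be tested alone. The sign of the difference follows from where the gene had reads and does not show that the muscles respond differently to grafting. These were *Neu2*, *Lbx1*, *Hoxc10*, *Hoxc9*, *Tmem61*, *Hoxc11*, *Hoxa10* and *Gm20398*, with few reads in EOM, and *Mobp*, *Olfr1507*, *Lmx1a*, *Hs3st4*, *Dcdc2a*, *Nespas* and *Nrk*, with few reads in TA. The difference, TA change minus EOM change on the log2 scale, was negative for *Neu2* (-6.26), *Lbx1* (-5.64), *Hoxc10* (-5.28), *Hoxc9* (-5.17), *Tmem61* (-5.10), *Hlx* (-5.05), *Cdh2* (-4.92), *Hoxc11* (-4.52), *Lix1* (-4.24), *Hoxa10* (-4.24), *Gm20398* (-3.35), *Ccnd1* (-3.25), *Dusp5* (-2.66) and *Igfbp5* (-1.92). *Tmem61* had no reads in any TA graft, which is at least 3.12-fold lower than before grafting. *Cdh2* and *Dusp5* had no called change in TA (0.47 and -0.04) and rose in EOM (5.33 and 2.57). The difference was positive for *Mobp* (6.89), *Pde9a* (5.67), *Olfr1507* (5.26), *Pi15* (5.06), *Lmx1a* (5.02), *Hs3st4* (4.88), *Dcdc2a* (4.80), *Nespas* (4.18), *Nrk* (3.78) and *Cd34* (1.68). *Nespas* overlaps a gene on the other strand, and whether the counting used strand is not given in the sources used here. In Experiment 2 alone the interaction was called for *Lmx1a*, *Lbx1*, *Tmem61*, *Hlx* and *Hoxc11* of the 24.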

How the results depend on the processing

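Against 1003 genes higher and 743 lower in TA grafts, the counts were 496 and 4046 on the authors' scaling without centring, 521 and 266 in Experiment 2 alone, 841 and 488 with the donor as a fixed block, 1025 and 439 with failed libraries included, 782 and 402 in edgeR, 14 and 5 with the endothelial covariate and 183 and 326 without the 4 grafts, the last pair of settings having been added after seeing the data. Leaving out each library gave 797 to 1168 higher, lowest without graft Exp1-3, and 535 to 969 lower, lowest without pre-graft Exp1-3 or Exp2-4 and highest without graft Exp2-5. Scaling without mitochondrial genes gave 906 higher and 939 lower, so the share of calls that were higher moved from 57.4% to 49.1%. DESeq2 gave 1161 higher and 543 lower, with no adjusted p for 507 genes. The donor as a block with an estimated correlation gave 1002 and 743. The 24 genes of the interaction became 6 in Experiment 2 alone and 6 with failed libraries included. With the endothelial covariate the changes of *Tm4sf1* (-0.061), *H2-T23* (-0.44), *Dll4* (-0.18), *Ccnd2* (-0.9998), *Tgfb1* (-0.14), *Cldn5* (-0.028), *Fabp4* (-0.25) and *Ly6c1* (-0.62) reversed in sign. *Cldn5*, *Fabp4* and *Ly6c1* are part of the sum used as the covariate, so the loss of their changes follows from the fit. Of 121 named genes called, 101 were called in every fit that left out a library. The fixed donor block lost the call of 10 named genes. The causes were not tested. Grafts held far fewer cells than pre-graft pools, so genes at 0 reads in grafts may lie below detection. Cell type markers, cell number and stage moved together, and levels rest on few nuclear reads in graft Exp2-3.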

Other observations

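*Rag2*, a recombinase gene of lymphocytes that the hosts lack, was looked at because of the host genotype, after its values were seen. It had 9, 0, 20, 0, 1, 58 and 41 reads in TA grafts Exp2-1, Exp2-2, Exp1-3, Exp2-3, Exp2-4, Exp2-5 and Exp2-6, and 0 reads in all 8 pre-graft TA libraries. *Il2rg*, the gene of γC, which the hosts also lack, had reads at both stages. It had 17, 5, 112, 1, 7, 10 and 78 reads in the same grafts in that order, and 0 to 122 in pre-graft TA libraries. Which part of either gene the reads covered is not given in the sources used here, so the reads do not tell donor from host cells. Some further small lists are given briefly, beside 7.67% of all genes called higher and 5.68% called lower. Of 24 tested metallothionein and antioxidant genes 2 were called higher and 3 lower, among them *Mt2* (log2 change -1.42, limma adjusted p = 0.0137). Of 20 tested p53 targets 4 were called higher, led by the death receptor *Tnfrsf10b* (4.12, 0.00188). The median change of the p53 targets was 0.09. In Experiment 2 alone 2 of 19 were called higher. Without the 4 grafts and with the covariate limma called 0, with 4 and 3 higher at an unadjusted p under 0.05. The sum of the p53 targets, which includes the abundant *Cdkn1a* described above, did not overlap, at 3260 to 6606 nuclear RPM in grafts and 1900 to 3001 before. Of 12 tested enzymes and readers of DNA methylation 1 was called, *Mbd2*, which was higher (1.12, 0.0175). Of 15 tested complement genes 1 was called, the membrane inhibitor *Cd59a* (1.76, 0.0158). In Experiment 2 alone limma called 0 of these methylation and complement genes, with 2 of each list higher at an unadjusted p under 0.05.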
